A study of Saccharomyces cerevisiae and Saccharomyces paradoxus and Saccharomyces mikatae with 10 samples.

Results

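The phosphate starvation regulon is the set of genes that budding yeast switches on when inorganic phosphate runs short. Its transcripts were examined here in 9 strains of 3 Saccharomyces species. The 10 genes PHO84, PHO89, PHO5, PHO8, PHO81, SPL2, VTC3, VTC4, GIT1 and PHM6 were selected by systematic name, with their levels in these strains and their tendency to move together already known. Of the 10 genes, 7 had values among the 4325 genes of the authors' table, and PHO5, PHO81 and VTC3 were not analysed here. The members' own levels, differences and correlations are therefore a description and carry no p-values.

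The study asked whether transcript levels of strains follow their relatedness or the environment they came from. S. paradoxus, a wild relative of baker's yeast, was represented by the wild strains N17 and N44, and S. mikatae by the wild strain IFO1815. S. cerevisiae was represented by the wild strains YPS606 and DBVPG1788, the wine strain BC187, the fruit juice strain DBVPG6040, the clinical strain YJM145 and the distillery strain Y9. All strains were grown at 30 °C in a medium that imitates oak sap, with 1% sucrose and with fructose and glucose at 0.5% each, and were harvested in mid-log phase at an optical density of 0.5. Besides the sugars, the medium held peptone at 0.15% and, at 0.1%, yeast extract. The labels name no treatment and no limitation of phosphate, and the phosphate content of the medium was not examined here. A single colony founded each culture, and each strain has 1 value per gene, since the 2 libraries of YPS606 were joined by the authors. A strain and its culture therefore cannot be told apart, and no spread within a strain could be computed. The values come from whole cultures, so fewer cells that express a gene and less RNA per cell cannot be told apart either.

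Phosphate supply is sensed in yeast by the PHO pathway. When phosphate is plentiful, the cyclin-dependent kinase Pho85 with its cyclin Pho80 phosphorylates the transcription factor Pho4, which is then exported from the nucleus. When phosphate is scarce, the inhibitor Pho81 blocks the kinase, and Pho4 stays in the nucleus and activates its targets together with the homeodomain factor Pho2. The targets take up phosphate (Pho84, Pho89), take up glycerophosphodiesters as another phosphate source (Git1), free phosphate from organic molecules (Pho5, Pho8), store it as polyphosphate (Vtc3, Vtc4) and act on signalling and transport (Pho81, Spl2). Pho4 binds the palindromic core CACGTG and, more weakly, the variant core CACGTT.

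Both cores were searched on both strands in the 500 bases before each start codon of the R64 reference genome, that of the laboratory strain S288C. The promoters of the 9 strains themselves were not read. Of the 7 members with values, 6 held at least 1 of the cores, against 21.0% of 6000 protein-coding genes. Among 23 other genes of phosphate metabolism and signalling with values, 14 (60.9%) held a core, so this trait is not particular to the members. CACGTG stood before 5 of the 7 members and before 6.23% of all genes, and CACGTT before 4 of the 7 and before 16.0% of all genes. In the 23 other genes these were 10 (43.5%) and 8 (34.8%). Of the 10 genes listed, 9 held a core. The sequences shown are the CACGTG match nearest to the start codon of each member, the second CACGTG of PHO84, and the only match of PHO8. They are given on the strand of the gene, and capitals mark the core. The match of PHO8 is the variant core read on the other strand.
PHO84, chrXIII:26197-26226: tgttatttccagCACGTGgggcggaaatta
PHO84, chrXIII:26219-26248: atttaatagttcCACGTGgacgtgttattt
PHO89, chrII:798828-798857: atgacaatgcagCACGTGggagacaaatag
PHO8, chrIV:1420613-1420642: ctcatatggagaAACGTGagattgaagtac
VTC4, chrX:413495-413524: cacgtggctgcaCACGTGaatgaaaaagaa
SPL2, chrVIII:375114-375143: agtcactgcagcCACGTGcctagatctatt
PHM6, chrIV:1022583-1022612: gagcttcgctgaCACGTGggaggtgggata

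The matches lay at different distances from the start codon. SPL2 had 4 matches to CACGTG, at 31, 90, 147 and 361 bases before its start codon. The cores of PHO84 shown here begin 414 and 436 bases before the start codon, and a variant core lies at 262 bases. VTC4 had a second CACGTG at 125 bases, 12 bases away from the one shown at 113 bases. GIT1 had neither core within 500 bases. All 7 members held a core within 1000 bases, where 17 of the 23 other genes (73.9%) and 35.9% of all genes did. A match is a string of letters in this window, and binding was not measured.

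**Figure D1:**
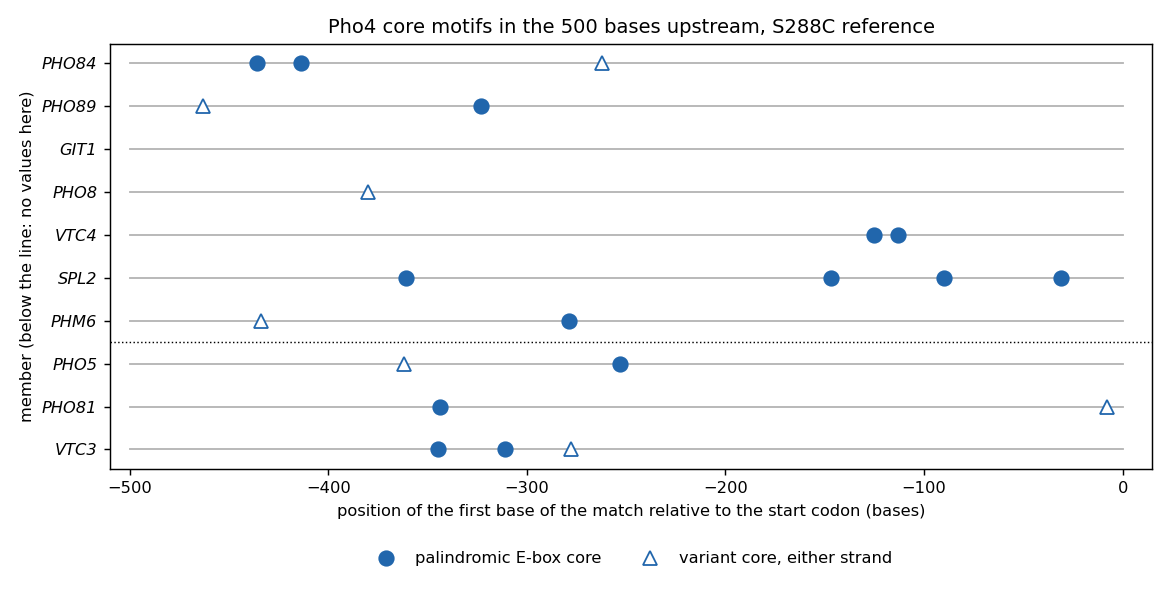
Positions of the 2 Pho4 cores before the start codons of the 10 genes in the S288C reference, as the distance in bases of the first base of the match. Filled circles are the palindromic core and open triangles the variant core on either strand. SPL2 carries 4 palindromic cores, GIT1 carries no core in the 500 bases, and the 3 genes under the dotted line have no values here.

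Levels are given as RPKM, a read number divided by the length of the gene and by the depth of the library, in a unit inferred from the values, and differences as log2(RPKM + 1). Sums of RPKM per strain ran from 356258 to 522913. In the S. cerevisiae strains the value of 1 read could be read off the low values, and the implied totals were 57.9 to 72.4 M (mega reads) for 5 strains and 153 M for the joined YPS606 libraries. The lowest value of a member by reads, that of PHM6 in DBVPG1788, then rests on about 99 reads and that of PHO89 in YJM145 on about 106. The depth of the strains of the other species is unknown. In IFO1815, 423 of 4260 genes were listed at 0, against 1 to 5 in each of the other 8 strains.

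PHO84 (YML123C, chromosome XIII, 24037 to 25800 in R64) encodes the main high-affinity phosphate transporter of the plasma membrane and was the most abundant member in 8 of the 9 strains. It had 729.7 and 989 RPKM in N17 and N44, 266 RPKM in IFO1815, 848 RPKM in YPS606, 445 RPKM in DBVPG1788, 869 RPKM in BC187, 1598 RPKM in DBVPG6040, 631 RPKM in YJM145 and 613 RPKM in Y9. DBVPG6040 was highest and IFO1815 lowest, and both S. paradoxus strains lay within the range of the S. cerevisiae strains. Within S. cerevisiae the highest level was 3.59 times the lowest. All 1764 bases of PHO84 lie opposite an annotated noncoding RNA, YNCM0001W, and the library protocol does not mark strand, so reads of the gene and of its antisense partner cannot be told apart.

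PHO89 (YBR296C, chromosome II, 796798 to 798522) encodes the other high-affinity transporter, which carries phosphate together with sodium. It had 70.4 and 86.9 RPKM in N17 and N44, 5.77 RPKM in IFO1815, 123 RPKM in YPS606, 5.25 RPKM in DBVPG1788, 155 RPKM in BC187, 9.47 RPKM in DBVPG6040, 0.933 RPKM in YJM145 and 16.6 RPKM in Y9. Both S. paradoxus strains, YPS606 and BC187 were above 70 RPKM, and the other 5 strains were below 17 RPKM. The highest S. cerevisiae strain had 166 times the level of the lowest, the widest fold range of the 7 members. DBVPG6040 was the highest strain for PHO84 and among the low ones for PHO89.

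GIT1 (YCR098C, chromosome III, 297049 to 298605) encodes the plasma membrane permease for glycerophosphoinositol and related compounds. It had 59.3 and 12.7 RPKM in N17 and N44, 3.12 RPKM in IFO1815, 158 RPKM in YPS606, 41.0 RPKM in DBVPG1788, 1043 RPKM in BC187, 160.5 RPKM in DBVPG6040, 81.7 RPKM in YJM145 and 12.6 RPKM in Y9. The wine strain BC187 stood above all other strains, and there GIT1 exceeded PHO84. The 2 S. paradoxus strains differed from each other 4.69-fold. The S. cerevisiae strains spanned 83.1-fold.

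PHO8 (YDR481C, chromosome IV, 1418550 to 1420250) encodes the vacuolar alkaline phosphatase. It had 105 and 75.9 RPKM in N17 and N44, 31.8 RPKM in IFO1815, 189 RPKM in YPS606, 100.5 RPKM in DBVPG1788, 207 RPKM in BC187, 145 RPKM in DBVPG6040, 127 RPKM in YJM145 and 70.0 RPKM in Y9. Its order of strains was close to that of GIT1, with BC187 highest and Y9 lowest in S. cerevisiae, but its range was 2.96-fold. VTC4 (YJL012C, chromosome X, 411234 to 413399), which encodes the catalytic subunit of the vacuolar polyphosphate polymerase, had a similarly narrow range of 2.94-fold. It had 199.6 and 229 RPKM in N17 and N44, 23.4 RPKM in IFO1815, 264 RPKM in YPS606, 110.3 RPKM in DBVPG1788, 302 RPKM in BC187, 325 RPKM in DBVPG6040, 175 RPKM in YJM145 and 152 RPKM in Y9. DBVPG6040, BC187 and YPS606 were the 3 highest strains, both S. paradoxus strains came next, and IFO1815 was far below the rest.

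SPL2 (YHR136C, chromosome VIII, 374654 to 375100) encodes a small protein that holds back low-affinity phosphate uptake. It had 106 and 96.1 RPKM in N17 and N44, 58.8 RPKM in IFO1815, 192 RPKM in YPS606, 65.0 RPKM in DBVPG1788, 325 RPKM in BC187, 275 RPKM in DBVPG6040, 69.2 RPKM in YJM145 and 23.5 RPKM in Y9. BC187, DBVPG6040 and YPS606 were above every other strain, and Y9 was the lowest of all 9, with a range of 13.9-fold in S. cerevisiae. PHM6 (YDR281C, chromosome IV, 1022007 to 1022321) encodes a protein of unknown function whose transcript depends on phosphate. It had 17.9 and 15.0 RPKM in N17 and N44, 13.1 RPKM in IFO1815, 34.1 RPKM in YPS606, 4.88 RPKM in DBVPG1788, 91.8 RPKM in BC187, 122 RPKM in DBVPG6040, 9.30 RPKM in YJM145 and 6.68 RPKM in Y9. The same 3 S. cerevisiae strains were above all others, and the 3 strains of the other species lay between them and the 3 low S. cerevisiae strains. The S. cerevisiae range of PHM6 was 25.0-fold.

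**Figure D2:**
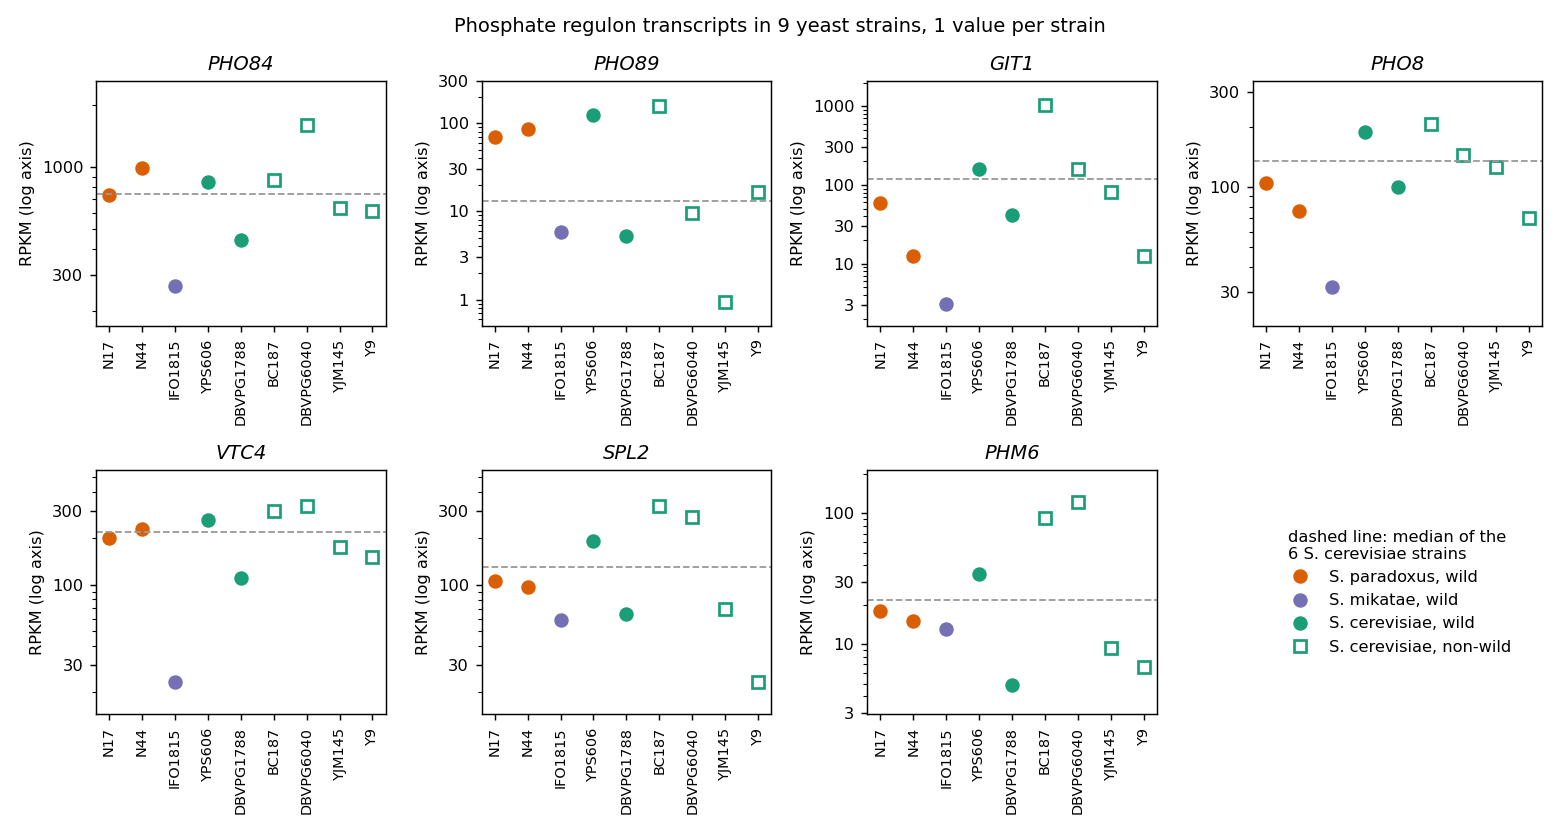
Level of each of the 7 members (RPKM, log axis) in the 9 strains, 1 point per strain with no error bars because each strain has 1 value. Filled circles are wild strains, open squares are non-wild S. cerevisiae strains, colours mark the species, and the dashed line is the S. cerevisiae median. In S. cerevisiae, YPS606 and BC187 lie above the line in 7 of 7 panels, DBVPG6040 in 6 of 7, and DBVPG1788 and YJM145 in 0.

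The members varied more among the S. cerevisiae strains than most transcripts did. On the log2(RPKM + 1) scale the SD over the 6 strains had a median of 1.45 over the 7 members, 0.43 over 23 other genes of phosphate metabolism and signalling, and 0.29 over the 4239 genes tested. The SD of PHO8, the smallest of the members, was larger than that of 92.5% of genes, and those of PHO89 and GIT1 were larger than that of 99.9%. The ranges of the members ran from 1.55 to 6.34 with a median of 3.74, against a median of 0.76 over all genes. The members were chosen with these levels known, so their place in this ranking is a description.

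Strain by strain, the members were counted when they differed at least 2-fold from the median of the other S. cerevisiae strains. In BC187, PHO89, GIT1, SPL2 and PHM6 were higher, 4 of 7 members, where 1.16% of all genes were. In YPS606, PHO89, SPL2 and PHM6 were higher, 3 of 7 members against 0.826% of all genes. In DBVPG6040, PHO84, SPL2 and PHM6 were higher, 3 of 7 members against 3.85% of all genes. No member was lower in these 3 strains.

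The other 3 S. cerevisiae strains showed the opposite direction. In DBVPG1788, 5 of 7 members were lower (PHO89, GIT1, VTC4, SPL2 and PHM6) against 1.34% of all genes. In Y9, GIT1, PHO8, SPL2 and PHM6 were lower, 4 of 7 members against 1.01% of all genes. In YJM145, PHO89, SPL2 and PHM6 were lower, 3 of 7 members against 1.42% of all genes. SPL2 and PHM6 were past the fold in all 6 S. cerevisiae strains, higher in 3 and lower in 3, whereas PHO84 was past it in DBVPG6040 alone and PHO8 in Y9 alone. The difference of PHO8 in Y9 was -1.04 on the log2 scale and came to -0.88 after quantile normalisation, and PHO84 was also past the fold in DBVPG1788 (-1.11) after median centring. DBVPG6040 carried genes of chromosomes I and XI at raised levels, with median differences of 0.78 and 0.74 on the log2 scale. No member lies on either chromosome, and on the chromosomes that hold members its median differences were 0.15 to 0.19.

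In the other species few members were past this fold in the same direction as in the high S. cerevisiae strains. PHO89 was the 1 member that was at least 2-fold higher in N17 (17.2% of all genes) and the 1 that was in N44 (12.7% of all genes). GIT1 was the 1 member at least 2-fold lower in N44 (3.14% of all genes), and none was lower in N17. IFO1815 had 5 of 7 members at least 2-fold lower, where 21.4% of all genes were.

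**Figure D3:**
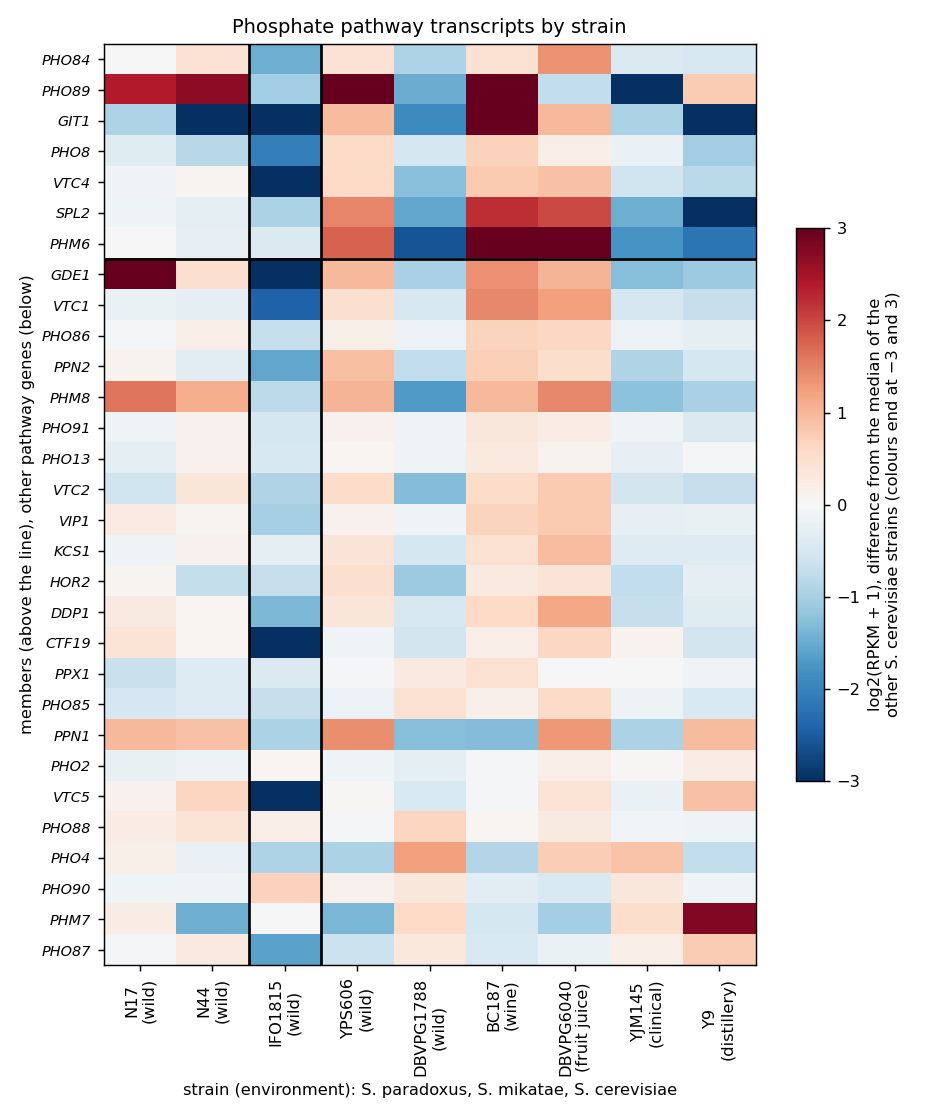
Difference of log2(RPKM + 1) from the median of the other S. cerevisiae strains for the 7 members (above the line) and 23 other phosphate pathway genes (below it, in order of their correlation with the members) in 9 strains. Red is higher, blue is lower, and colours end at -3 and 3. SPL2 and PHM6 are red in YPS606, BC187 and DBVPG6040 and blue in DBVPG1788, YJM145 and Y9, while PHO87 has the opposite colours in these 6 strains.

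Because the members were proposed for moving together, their correlations are given without p-values. Over the 9 strains, which include 3 species, the 21 pairs of members had a median Pearson r of 0.64 (from 0.37 to 0.95) and a median Spearman rho of 0.80, where the median r over all pairs of genes was 0.16. Over the 6 S. cerevisiae strains alone the median r was 0.77 (from 0.29 to 0.96) and the median rho 0.89, against a median r of 0.15 over all pairs. All 21 correlations were positive in both sets. The strains share 1 growth condition, each has 1 value per gene, and a strain that is high for several members raises all their correlations. Without the strains farthest from the median of the members' mean, BC187 and IFO1815, the median r was 0.61, with 20 of 21 pairs above 0.

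The tightest pair over all strains was GIT1 with PHO8, the permease and the vacuolar phosphatase, with an r of 0.95 over 9 strains and 0.94 within S. cerevisiae. PHO84 and VTC4 reached 0.91 over 9 strains and 0.90 within S. cerevisiae, and SPL2 and PHM6 reached 0.90 and 0.91. PHM6 and VTC4 ranked the 6 S. cerevisiae strains in the same order as PHO84, with a rho of 1.00 for each pair. PHO89 followed the others least. Its median r with the other 6 members was 0.44 over 9 strains and 0.55 within S. cerevisiae, and with PHO84, the other high-affinity transporter, it was 0.29 within S. cerevisiae.

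**Figure D4:**
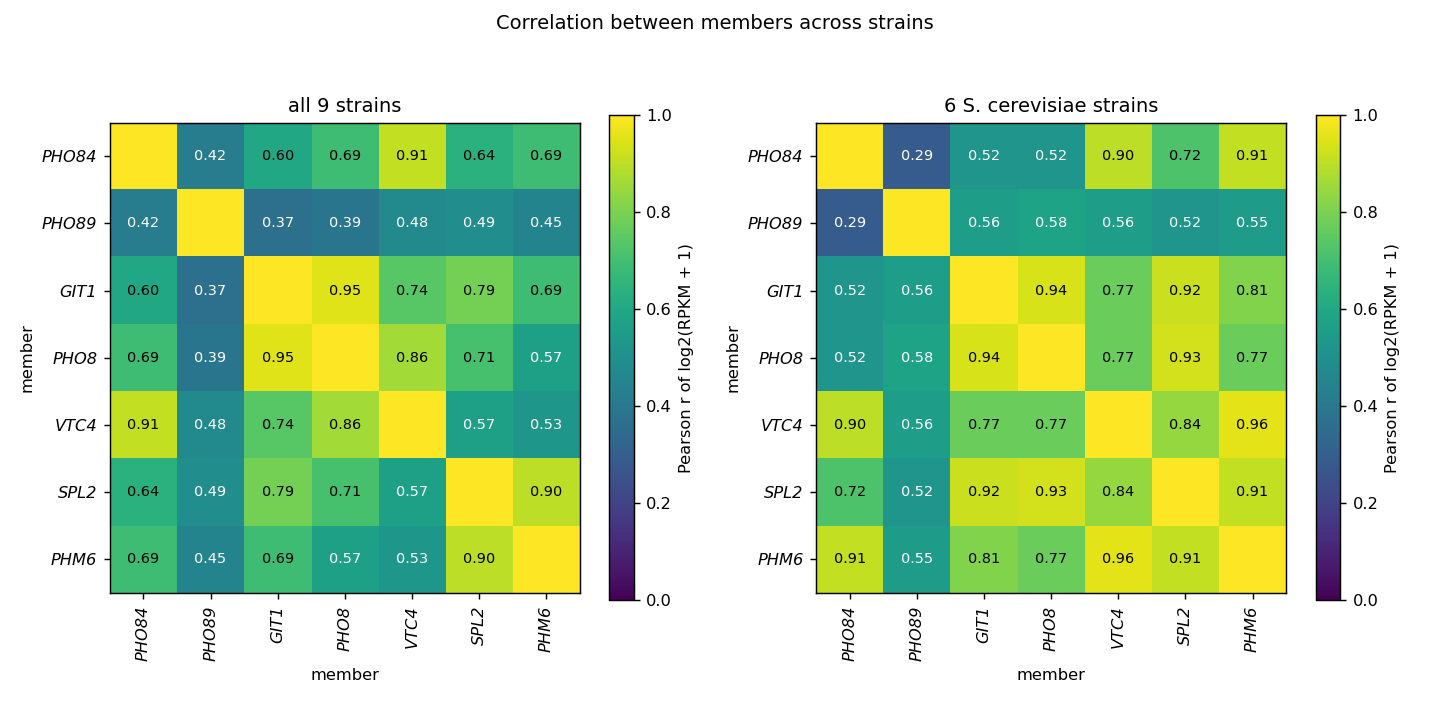
Pearson r between the members' log2(RPKM + 1) over all 9 strains (left) and the 6 S. cerevisiae strains (right). Brighter squares are higher correlations. The row of PHO89 is the darkest on both sides, and GIT1 with PHO8 reaches 0.95 on the left and 0.94 on the right.

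The other genes of the pathway were compared with the members' mean, the average of their log2(RPKM + 1) after each member was centred. Of 23 such genes, 11 had an r of at least 0.7 over 9 strains, where 1.21% of all genes did, and 13 had one over the 6 S. cerevisiae strains, where 3.36% did. Their median r was 0.68 over 9 strains, against 0.08 over all genes, and 0.78 within S. cerevisiae, against -0.08. The list of these genes was chosen with earlier results of these data known, so the shares are a description and not a test. The 11 genes were VTC1 and VTC2 (subunits of the polyphosphate polymerase complex), PPN2 (a vacuolar polyphosphatase), PHO86 (an endoplasmic reticulum protein needed for the export of Pho84), PHO91 (a vacuolar phosphate transporter), GDE1 (a glycerophosphocholine phosphodiesterase), PHO13 (a phosphatase), HOR2 (a glycerol-3-phosphatase), and KCS1, VIP1 and DDP1, which make and break down inositol pyrophosphates. Without IFO1815, where GDE1 is listed at 0, the r of GDE1 was 0.50 and that of PHO13 was 0.59, and 9 of the 23 genes reached 0.7, against 1.16% of all genes. Within S. cerevisiae PHM8, which encodes a phosphatase, and CTF19, a kinetochore gene, were added. CTF19 overlaps its neighbour IRC15 by 27 bases.

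VTC1 had 727 and 689 RPKM in N17 and N44, 155 RPKM in IFO1815, 997 RPKM in YPS606, 708 RPKM in DBVPG1788, 1910.1 RPKM in BC187, 1675 RPKM in DBVPG6040, 702 RPKM in YJM145 and 623 RPKM in Y9. BC187, DBVPG6040 and YPS606 were its highest strains and IFO1815 its lowest, with an r of 0.88 over 9 strains and 0.93 within S. cerevisiae. GDE1 reached 0.97 within S. cerevisiae, where it had 33.3 RPKM in YPS606, 16.5 RPKM in DBVPG1788, 44.6 RPKM in BC187, 34.6 RPKM in DBVPG6040, 13.2 RPKM in YJM145 and 15.2 RPKM in Y9. PHO91 and PHO86 had r values of 0.87 and 0.90 over 9 strains, yet their highest S. cerevisiae levels were only 1.60 and 1.73 times their lowest.

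Genes that run against the members were fewer over all strains. PHO90, a low-affinity phosphate transporter, was the 1 pathway gene with an r of -0.7 or below over 9 strains (r = -0.79), where 0.662% of all genes were that low. Without IFO1815 its r was -0.66, and that of PHO87, the other low-affinity transporter, was -0.84 where it had been 0.10 over 9 strains. Within S. cerevisiae PHO87 (r = -0.86) and PHM7 (r = -0.72) were past that value, 2 of 23 genes against 7.16% of all genes, a share close to the background. PHO87 had 26.9 and 34.8 RPKM in N17 and N44, 8.58 RPKM in IFO1815, 18.7 RPKM in YPS606, 32.8 RPKM in DBVPG1788, 21.5 RPKM in BC187, 26.1 RPKM in DBVPG6040, 30.1 RPKM in YJM145 and 44.7 RPKM in Y9. Its highest S. cerevisiae strain, Y9, was the lowest for GIT1, PHO8 and SPL2.

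Transcripts of PHO4, PHO2 and PHO85 did not share the members' pattern to the same degree, and PHO80 and PHO81 had no values. The signalling genes KCS1, VIP1 and DDP1 were closer to it, with r values of 0.78, 0.88 and 0.85 over 9 strains. Within S. cerevisiae these were 0.80, 0.83 and 0.78. PHO4, which encodes the activator itself, had 39.9 and 30.6 RPKM in N17 and N44, 17.9 RPKM in IFO1815, 22.9 RPKM in YPS606, 64 RPKM in DBVPG1788, 24.3 RPKM in BC187, 45.4 RPKM in DBVPG6040, 49.6 RPKM in YJM145 and 26.9 RPKM in Y9. YPS606 and BC187, both high for the members, were the lowest S. cerevisiae strains for PHO4, and the r with the members' mean was -0.03 over 9 strains and -0.53 within S. cerevisiae. PHO2 had r values of -0.10 and -0.00, and PHO85 of 0.46 and 0.27. These are levels of RNA, and neither the amount of the proteins nor the phosphorylation of Pho4 was measured.

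**Figure D5:**
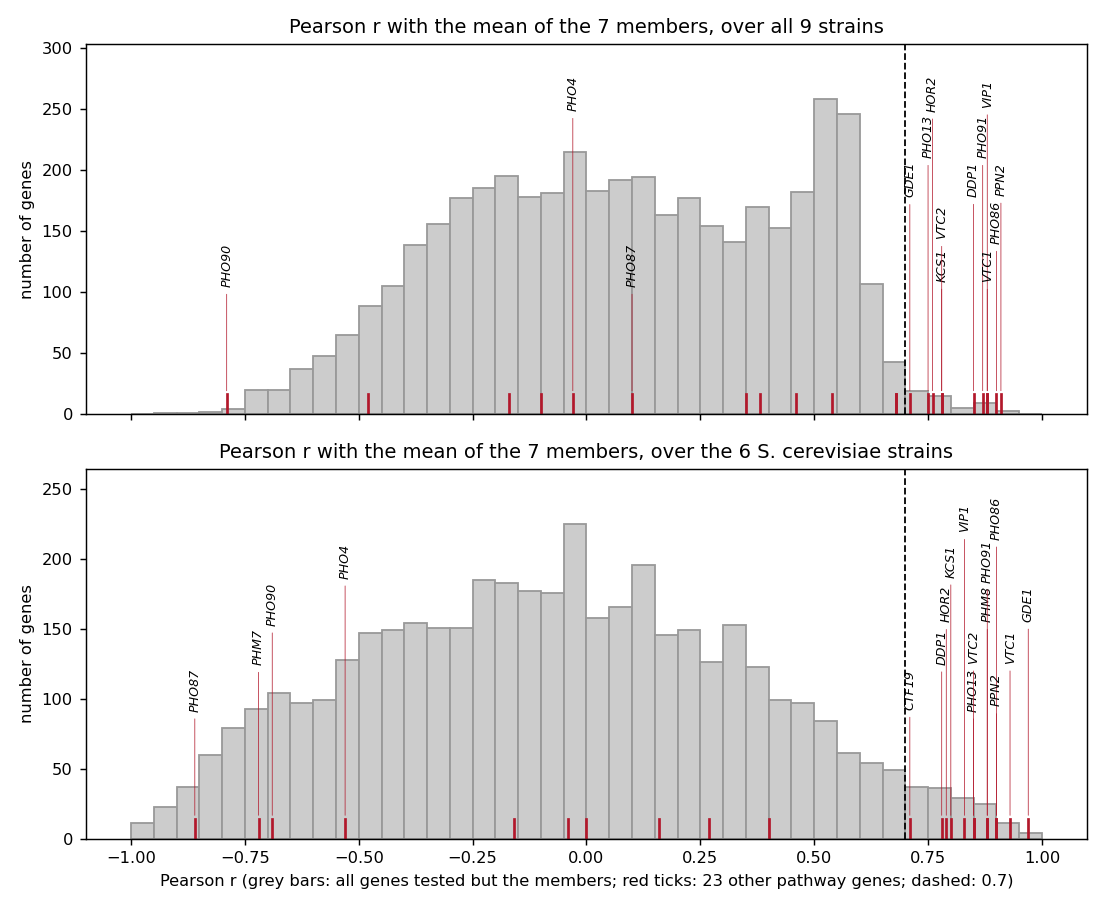
Pearson r of each gene's log2(RPKM + 1) with the mean of the 7 members over all 9 strains (top) and the 6 S. cerevisiae strains (bottom). Grey bars count all genes tested other than the members, red ticks are the 23 other pathway genes, and the dashed line is at 0.7. Of the red ticks, 11 of 23 lie to the right of the line at the top and 13 of 23 at the bottom, and PHO90 at the top and PHO87 at the bottom lie far to the left. The genes of the red ticks were chosen with earlier results of these data known.

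Among all genes with values above 0 in every strain, those most like the members' mean over 9 strains were GTO3 (r = 0.92), PPN2 (0.91), PHO86 (0.90), URH1 (0.90), VTC1 (0.88), VIP1 (0.88), PHO91 (0.87) and KTR1 (0.87). Thus 5 of the 8 were on the pathway list, which was chosen with earlier results of these data known. The other 3 encode a glutathione transferase (GTO3), a nucleosidase (URH1) and a mannosyltransferase (KTR1). GTO3 had 20.3 and 15.8 RPKM in N17 and N44, 4.85 RPKM in IFO1815, 29.2 RPKM in YPS606, 14.1 RPKM in DBVPG1788, 36.4 RPKM in BC187, 45.6 RPKM in DBVPG6040, 12.1 RPKM in YJM145 and 15.9 RPKM in Y9. Its order of strains was like that of PHM6 at the top, with DBVPG6040, BC187 and YPS606 highest.

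The 8 most alike within S. cerevisiae were also taken from genes above 0 in all 9 strains. They were GID7 (r = 0.96), YCL012C (0.95), FBA1 (0.94), VMA6 (0.94), TMS1 (0.93), VTC1 (0.93), ABP1 (0.93) and ERG9 (0.92). VTC1 was the 1 gene in both sets of 8. GDE1, a pathway gene with a higher r of 0.97, was left out of this ranking because it is listed at 0 in IFO1815. Over 9 strains the r of FBA1, TMS1 and ERG9 was 0.26, 0.40 and 0.25, and without IFO1815 it was 0.60, 0.85 and 0.78. Over the 6 strains 142 of 4232 genes, or 3.36%, had an r of at least 0.7, so such an r alone does not tie a gene to the members.

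S. paradoxus was compared with S. cerevisiae over strains, with 2 and 6 strains and with limma across the 4239 genes. On this scale 920 genes, or 21.7%, were called higher and 102, or 2.41%, were called lower at an adjusted p under 0.05. The median difference of all genes was 0.32. It came to -0.03 after quantile normalisation, which called 328 higher and 316 lower, and to -0.02 after median centring, which called 332 higher and 298 lower. The medians of gene sets that follow are therefore also given relative to the median of all genes. Differences of single genes are not relative to it unless this is stated. The 7 members had a median difference of -0.14, or -0.45 relative to all genes, and PHO89 was the 1 member above the median of all genes. Single strains moved this median: it was 0.16 without BC187, 0.12 without DBVPG6040 and 0.02 without YPS606, and relative to all genes it ran from -0.15 without BC187 to -0.90 without Y9. The 23 other pathway genes had a median of -0.04, or -0.36 relative to all genes, with 3 of 23 above the median of all genes.

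No member separated the species. PHO89 had the largest positive difference, 2.08 (SE 1.40), with 78.6 ± 11.7 RPKM in S. paradoxus (SD, n = 2) and 51.8 ± 68.7 RPKM in S. cerevisiae (SD, n = 6). GIT1 had the largest negative difference, -1.86 (SE 1.26), with 36.0 ± 33.0 RPKM in S. paradoxus and 249 ± 393 RPKM in S. cerevisiae. For both genes the SD in S. cerevisiae was larger than its mean, and the groups overlapped for 7 of 7 members. The share of all genes for which the groups overlapped is not given here, so the count does not set the members apart. The other differences were 0.15 (SE 0.41) for PHO84, 0.05 (SE 0.39) for VTC4, -0.14 (SE 0.83) for SPL2, -0.46 (SE 1.08) for PHM6 and -0.55 (SE 0.37) for PHO8. Apart from PHO8 and the 2 named first, each was smaller than its SE. Relative to the median of all genes, PHO84 was at -0.17 and VTC4 at -0.26.

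Of the 23 other pathway genes 1 was called lower and 0 higher, where 2.41% of all genes were called lower and 21.7% higher. The gene called was PPX1, which encodes an exopolyphosphatase and was lower by 0.61 on the log2 scale (SE 0.20, limma adjusted p = 0.0488). It had 23.3 and 28.6 RPKM in N17 and N44, 35.9 RPKM in YPS606, 44.7 RPKM in DBVPG1788, 51.5 RPKM in BC187, 37.3 RPKM in DBVPG6040, 37.5 RPKM in YJM145 and 34.9 RPKM in Y9. Both S. paradoxus strains lay below every S. cerevisiae strain, but the call was lost without any 1 of 7 of the 8 strains, the exception being DBVPG6040. PHM8 had both S. paradoxus strains above all S. cerevisiae strains, at 140.0 and 97.4 RPKM against 19.2 to 88.4 RPKM, with a difference of 1.42 (SE 0.51) that was not called (limma adjusted p = 0.0662). The share of all genes whose groups were apart in this way is not given here. GDE1 had a difference of 1.72 (SE 0.62, limma adjusted p = 0.0655), but N17 had 192 RPKM and N44 had 33.1 RPKM, and N44 lay within the S. cerevisiae range.

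PHO85, which encodes the kinase of the pathway, had 66.4 and 72.0 RPKM in N17 and N44 against 72.9 to 133 RPKM in S. cerevisiae, and a difference of -0.52 (SE 0.24, limma adjusted p = 0.145). After quantile normalisation it was -0.79 and was called (limma adjusted p = 0.0347), as it was after median centring. The difference was 0.91 (SE 0.49) for the polyphosphatase gene PPN1, -0.78 (SE 0.79) for PHM7, 0.28 (SE 0.28) for CTF19, -0.21 (SE 0.18) for PHO2, 0.20 (SE 0.25) for PHO88, which encodes an endoplasmic reticulum membrane protein, 0.13 (SE 0.29) for PHO87 and -0.09 (SE 0.20) for PHO13. None of these 7 was called. Relative to the median of all genes, CTF19 was at -0.03, PHO88 at -0.11 and PHO87 at -0.18, while PPN1 stayed positive at 0.60.

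The wild strains of S. cerevisiae, YPS606 and DBVPG1788, stood on opposite sides of the species median for 7 of 7 members. The comparison of the 2 wild with the 4 non-wild strains called 0% of genes higher and 0% lower with limma, with 55 genes at an unadjusted p under 0.05. The members had a median difference of -0.40, or -0.34 relative to all genes. Relative to all genes it was -1.08 without YPS606, 0.62 without DBVPG1788 and 0.42 without BC187, so its sign was set by single strains. For 7 of 7 members the wild and non-wild strains overlapped. The shares of all genes that overlapped, or had the 2 wild strains on opposite sides, are not given here. These counts therefore do not set the members apart from other genes. PHM6, for example, had 34.1 and 4.88 RPKM in the wild strains, against 91.8, 122, 9.30 and 6.68 RPKM in the non-wild strains, and the difference of -1.10 was smaller than its SE of 1.20.

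The single S. mikatae strain had the lowest levels of several members. PHO84, GIT1, PHO8 and VTC4 were lower in IFO1815 than in every S. cerevisiae strain, with differences from the S. cerevisiae median of -1.46 for PHO84, -4.80 for GIT1, -2.06 for PHO8 and -3.15 for VTC4 on the log2 scale. Of all genes, 16.6% had a lower difference than PHO84, 3.02% than GIT1, 13.7% than PHO8 and 9.86% than VTC4. The median differences of their chromosomes in IFO1815 were 0.04 (XIII), -0.91 (III), -0.20 (IV) and -0.02 (X). The share of all genes below every S. cerevisiae strain is not given here. PHO89, SPL2 and PHM6 lay within the S. cerevisiae range, at differences of -1.01, -0.96 and -0.43, and for PHO89 the difference was 0.15 after quantile normalisation. In IFO1815 genes listed at 0 were unevenly spread over the chromosomes, and among the members PHO84 on chromosome XIII and SPL2 on chromosome VIII lie on chromosomes with at most 1 such gene. No member was at 0, but GDE1 and VTC5 were listed at 0 and CTF19 was close to 0. With 1 strain there is no test, and the part of these chromosomes in the low values was not tested.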

How the data were processed

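Poly(A) RNA of 10 libraries from 9 strains was sequenced, with random priming and no marking of strand, per the labels' protocols. The submitters' processing notes name cutadapt, TopHat, Cufflinks and the R64 genome, with no versions or roles. The values the authors deposited, 1 per strain and gene, were taken as RPKM (a read or fragment number divided by gene length and library depth). No header or label names this unit. It was inferred because, in the S. cerevisiae strains, 93.6% to 98.2% of low values multiplied by the R64 coding length were whole multiples of 1 step per strain, within a tolerance of 0.05. How the authors assigned reads of S. paradoxus and S. mikatae to these genes is not given in the sources used here, and their gene lengths were not used.

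Values were analysed as log2(RPKM + 1) for the 4239 of 4325 genes with a mean of at least 1 and no missing value. Fold changes on this scale understate the change of low genes. Species and wild against non-wild S. cerevisiae were compared with limma 3.58.1 (lmFit, eBayes with trend, two-sided, Benjamini-Hochberg over 4239 genes, threshold 0.05), with strains as replicates and IFO1815 left out, after the fit was tested on simulated data. Strains served as the replicates of a group, so p-values measure the spread between single cultures of different strains. No batch or date is given in the labels, so a batch could not be examined.

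The members, and the list of 31 other genes of phosphate metabolism and signalling, of which 23 had values, were chosen with earlier results of these data known. Named among the other pathway genes are those past the threshold and the 2 with the largest absolute species difference in each role, and among all other genes the 8 most correlated with the members' mean over 9 and over 6 strains, of 3812 genes with no 0. VTC1, GDE1, PHO90, PHO91, PHO86 and PHO4 are also described by value and were chosen after their values were seen. Promoter windows, coordinates and overlaps come from RefSeq's R64 genome and annotation. Gene symbols were matched by locus tag, for 4284 genes of the table. Alternatives covered the pseudocount (0.1), filters, quantile normalisation, median centring and leaving out strains.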

Additional observations from a re-analysis of the deposited data

Results flagged for a closer look

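The 7 members were examined for single strains far from the rest in 21 sets of strains (for each member the 6 S. cerevisiae strains, the 4 non-wild strains and the 5 wild strains), and 4 were found. The members were chosen with these levels known, so the 4 are a description and not a test. Gaps were taken on RPKM, not on the log2 scale used elsewhere. On a log2 scale a single high strain lies closer to the rest. A chance rate of about 1 such strain in 20 sets assumes normally distributed values, which was not examined for these members. PHO84 stood at 1598 RPKM in DBVPG6040, against 445 to 869 RPKM in the other 5 S. cerevisiae strains, and the gap was 0.63 of the whole range. PHO89 stood at 155 RPKM in BC187, against 0.933 to 16.6 RPKM in the other 3 non-wild strains, with a gap of 0.90 of the range. GIT1 stood at 1043 RPKM in BC187, against 12.6 to 160.5 RPKM, both among the 6 S. cerevisiae strains and among the 4 non-wild strains, with a gap of 0.86 of the range. The strains share their values between these sets, so the 4 are not independent, and each value comes from 1 culture.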

How the results depend on the processing

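Of 225 recomputed values for 35 results, 196 stayed within 1 SD of the members' spread, or within 1.5 times for a count, and 29 moved. Under both quantile normalisation and median centring, GIT1 was also at least 2-fold lower in N17 (1 member) and PHO8 also in N44 (2 members). Quantile normalisation alone put PHO89 at least 2-fold lower in DBVPG6040 (1 member) and higher in Y9 (1 member). For S. paradoxus against S. cerevisiae it called 328 genes higher and 316 lower, and median centring 332 and 298. Leaving out 1 strain gave 371 (without N17) to 1057 higher and 63 (without N17) to 123 lower. Both scalings called 2 other pathway genes lower, PPX1 and PHO85. Leaving out 1 strain gave 0 to 1 higher, GDE1 without N44 (limma adjusted p = 0.0152) and PHM8 without DBVPG6040 (limma adjusted p = 0.0302), and 0 to 1 lower. For wild against non-wild strains, leaving out 1 strain called 0 to 1 gene lower, and the members' median difference relative to all genes ranged from -1.08 to 0.62 and changed sign without DBVPG1788 (0.62) and without BC187 (0.42). The number of other pathway genes at an r of at least 0.7 was 9 to 13 when each of 9 strains was left out in turn, and 12 to 14 when each of 6 was. The share of all genes at that r moved as well. It was 1.16% (without IFO1815) to 3.17% (without Y9) over 9 strains, and 3.90% (without YJM145) to 7.63% (without Y9) over 6. The cause of these changes was not tested. No paired analysis was possible because the labels number replicates for 1 strain only and its libraries share a column. With 1 value per strain, the data limit every statement about a single strain to its culture.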

Other observations

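The genes whose transcripts ran most strongly against the members' mean were looked up after their values were seen. Over 9 strains the lowest among genes above 0 in every strain was CTP1, which encodes the mitochondrial citrate carrier, with an r of -0.93. It had 24.3 and 24.5 RPKM in N17 and N44, 36.1 RPKM in IFO1815, 16.7 RPKM in YPS606, 24.6 RPKM in DBVPG1788, 15.3 RPKM in BC187, 20.1 RPKM in DBVPG6040, 32.1 RPKM in YJM145 and 35.7 RPKM in Y9. BC187 and YPS606, both high for the members, were its lowest strains, and IFO1815 and Y9 its highest. YHM2, which encodes another mitochondrial carrier that transports citrate, was the third from the lowest, with an r of -0.83, and BOP3 (-0.86) and RAT1 (-0.82), a nuclear exonuclease gene, stood beside it.

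Within S. cerevisiae the genes with the lowest r included ADE6 (r = -1 after rounding), a gene of purine synthesis, NUP145 (-0.98), a nuclear pore gene, and PAB1 (-0.98), which encodes the poly(A)-binding protein. ADE6 had 119 RPKM in YPS606, 155 RPKM in DBVPG1788, 109.8 RPKM in BC187, 119.9 RPKM in DBVPG6040, 152 RPKM in YJM145 and 161 RPKM in Y9. Its range was 1.47-fold, so a near-perfect reverse order of 6 strains came with small differences in level. Over 9 strains its r was -0.54.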
